A study of Mus musculus with 24 samples.

Results

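Solute carrier (SLC) genes encode membrane proteins that move amino acids, sugars, nucleotides, metals, phosphate and other small solutes across the plasma membrane and across the membranes of organelles. They were examined here in RNA from γδ T cells of 4 mouse tissues. All rows of the deposited table whose symbol starts with Slc and a number were taken, without Slc16a3 and without rows that merge several genes, which left 54 of the table's 7926 genes. Of these, 36 averaged at least 10 normalized reads (reads scaled for library depth) over the 24 libraries and are called well read, and 18 lay below that level. Of the 36, 6 reached this mean only through the tissue where they were highest, since they averaged under 10 over the other 3 tissues: Slc10a6 and Slc7a8 through adipose tissue, and Slc34a2, Slc9a4, Slc39a2 and Slc6a4 through lung. Their differences in that tissue follow in part from the choice and are given as a description, without a p-value. Counts of members that passed include them, and for each comparison with that tissue the count without them is given too. At the border, Slc6a4 averaged 11.4 normalized reads and was kept, while Slc24a1 averaged 9.61 and was not.

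The cells were sorted from male C57Bl/6 mice in which GFP reports PLZF, the zinc-finger regulator found in innate-like lymphocytes, and that were killed at 16 to 22 weeks of age. Both the PLZF+ and the PLZF- cells came from these reporter mice, which received no treatment. PLZF+ and PLZF- γδ T cells were each taken from epididymal fat (called adipose tissue below), lung, spleen and the inguinal lymph nodes and sequenced with Smart-seq2, a full-length method for small samples, in 8 groups of 3 libraries. The series describes 2 replicates from pools of 10 mice while 3 libraries carry labels in each group, and nothing says whether the 3 hold separate pools, so p-values measure the spread between these libraries. Zbtb16, the gene of PLZF, was not analysed here, so the sort labels were not checked against it.

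By family number, 13 of the 54 genes fall among amino acid transporters, 8 among ion exchangers, 7 among mitochondrial carriers, 7 among zinc and other metal transporters, 4 among sugar transporters and 4 among nucleotide-sugar transporters. The others are 3 monocarboxylate and sulfate transporters, 3 phosphate transporters, 3 peptide and organic ion transporters and 2 vitamin and lipid transporters. A symbol does not make a carrier. Slc9a3r2 encodes the scaffold protein NHERF2, Slc36a3os is an antisense RNA and Slc2a4rg-ps is a pseudogene; whether the reads were counted by strand is not stated, so reads of Slc36a3os and of the gene it overlaps cannot be told apart.

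Activated lymphocytes take up more amino acids than resting ones. Slc3a2 is the heavy chain (CD98) that carries light chains such as those of the Slc7 family to the cell surface, and Slc38a2 brings in neutral amino acids together with sodium. When amino acids run short, the kinase GCN2 raises translation of the transcription factor ATF4, which binds response elements in the regulatory regions of several transporter genes. Iron and zinc are handled by other families: in macrophages, Slc11a1 pumps metal ions out of the phagosome and Slc40a1 (ferroportin) exports iron from the cell.

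The stretches before the start of 3 members are printed because they hold the letters of an element that answers to amino acid shortage or to cAMP. RefSeq windows of GRCm38.p6, which reach from 250 bases before each annotated start to 50 after it, were found for 48 of the 54 members, and each was searched on both strands for TGATGNAAN (the core of the amino acid response element), TGACGTCA (the cAMP response element), TGANTCA (AP-1) and CACGTG (an E-box). The first motif was in windows of 2 members, Slc7a11 and Slc9a9, and in 3.95% of all 32851 windows. The cAMP response element was in 1 member, Slc25a25, and in 1.79% of windows. AP-1 letters were in 6 members and in 7.81% of windows, and E-box letters were in 2 members and in 7.15% of windows. The 48 members have 66 windows, and a member counts if any of its windows holds the letters. Counts of members and shares of windows are therefore unlike measures. The matches of TGATGNAAN and TGACGTCA are in capitals below, each sequence gives the 250 bases before the start, 5′ to 3′ on the strand of its gene, and a match is a description of letters only. Slc7a11 is shown from chr3:50443614-50443863 (minus strand), Slc9a9 from chr9:94669642-94669891 (plus strand) and Slc25a25, for 1 of its 3 windows, from chr2:32424067-32424316 (minus strand).
Slc7a11: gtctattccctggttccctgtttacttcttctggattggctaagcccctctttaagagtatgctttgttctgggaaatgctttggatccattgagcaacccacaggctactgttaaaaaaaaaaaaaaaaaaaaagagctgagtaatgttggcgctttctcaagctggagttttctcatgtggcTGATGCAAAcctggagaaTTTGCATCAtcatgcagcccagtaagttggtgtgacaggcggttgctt
Slc9a9: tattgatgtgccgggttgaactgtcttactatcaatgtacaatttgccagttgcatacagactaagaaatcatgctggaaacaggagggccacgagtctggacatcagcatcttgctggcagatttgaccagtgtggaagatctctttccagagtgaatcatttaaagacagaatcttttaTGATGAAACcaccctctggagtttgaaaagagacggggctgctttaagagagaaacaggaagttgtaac
Slc25a25: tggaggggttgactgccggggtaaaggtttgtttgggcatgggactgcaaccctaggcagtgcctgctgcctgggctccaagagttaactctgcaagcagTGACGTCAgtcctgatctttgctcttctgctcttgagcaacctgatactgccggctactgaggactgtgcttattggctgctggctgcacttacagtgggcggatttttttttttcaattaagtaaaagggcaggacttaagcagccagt
Slc7a11, the cystine and glutamate exchanger, holds the core in both orientations, beginning 66 and 48 bases before the start. In Slc9a9, an exchanger of endosomes, it begins 69 bases before the start, and in Slc25a25, a mitochondrial ATP-Mg and phosphate carrier, the cAMP element begins 150 bases before it.

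The libraries held between 57107 and 845066 reads in the table. Both subsets of lung libraries 2 and 3 were shallow, so that 3 reads there stand for 9.12 to 17.7 normalized reads, against 1.11 to 7.57 in the other 20 libraries. Marker genes of other cells were present in the sorted samples. Of 10 endothelial markers listed, 9 are in the table, and they took 2.47% to 4.74% of reads in adipose libraries 2 and 3 of both subsets but 0.0267% and 0.111% in adipose libraries 1. The same 4 libraries held more reads of the 6 stromal markers (0.370% to 0.794%, against 0.0230% and 0.0833% in libraries 1) and of the 7 of 8 adipocyte markers in the table (0.317% to 0.470%, against 0.0289% and 0.0486%). Of 10 macrophage markers 8 are in the table, with 2.61% to 6.69% of reads in lung, 0.378% to 1.36% in adipose tissue, 0.161% to 1.12% in spleen and 0.00571% to 2.0% in lymph node. The 4 CD3 genes, which define T cells, took 0.0560% to 0.766% in adipose tissue, 0.137% to 0.582% in lung, 0.712% to 1.27% in spleen and 0.956% to 1.65% in lymph node. In bulk RNA, fewer cells of a type and less RNA per cell cannot be told apart.

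Genes in the table were kept by the authors for a difference between tissues, so the tissue comparisons are not independent of how the rows were chosen. Between adipose tissue and the 2 lymphoid organs (spleen and lymph node), 30 of the 36 well-read members passed limma's test at an adjusted p under 0.05, 19 higher and 11 lower in adipose tissue, beside 85.1% of all 2848 genes tested (47.4% higher and 37.7% lower). Their median log2 difference was 0.95, against 0.48 over all tested genes. Between lung and the same lymphoid libraries, 29 of 36 passed, 19 higher and 10 lower in lung, beside 79% of all genes (42% higher and 37.1% lower), with a median of 0.87 against 0.46. In 7 members every adipose library lay above every lymphoid one, beside 12.6% of all genes, and in 2 every lung library did, beside 8.85%. In 1 member every adipose library lay below (4.49% of genes) and in none did every lung library (3.12%). The shares of members read much like those of all genes, and both comparisons use the same 12 spleen and lymph node libraries. Scaling moves this balance: 10 members were higher and 13 lower in adipose tissue with quantile scaling, and 12 higher and 11 lower when reads were scaled to library totals. In lung the splits were 12 and 11 with quantile scaling and 15 and 11 with totals. Under quantile scaling the median of all genes stood at -0.48 for adipose tissue and -0.20 for lung, and under totals at -0.19 and -0.08. No called difference changed sign with quantile scaling. Without the members that reached the read minimum through the tissue itself, a count added after the data were seen, 28 of 34 passed in adipose tissue (17 higher) and 25 of 32 in lung (15 higher). Results are also given with doubtful libraries left out. Without adipose libraries 2 and 3 of both subsets, fewer members and fewer of all genes passed in adipose tissue. The same was seen in lung without the 4 shallow lung libraries. In both settings every member that still passed was higher in the tissue, and no lower call of a member remained. Both settings leave 2 libraries of a tissue.

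**Figure D1:**
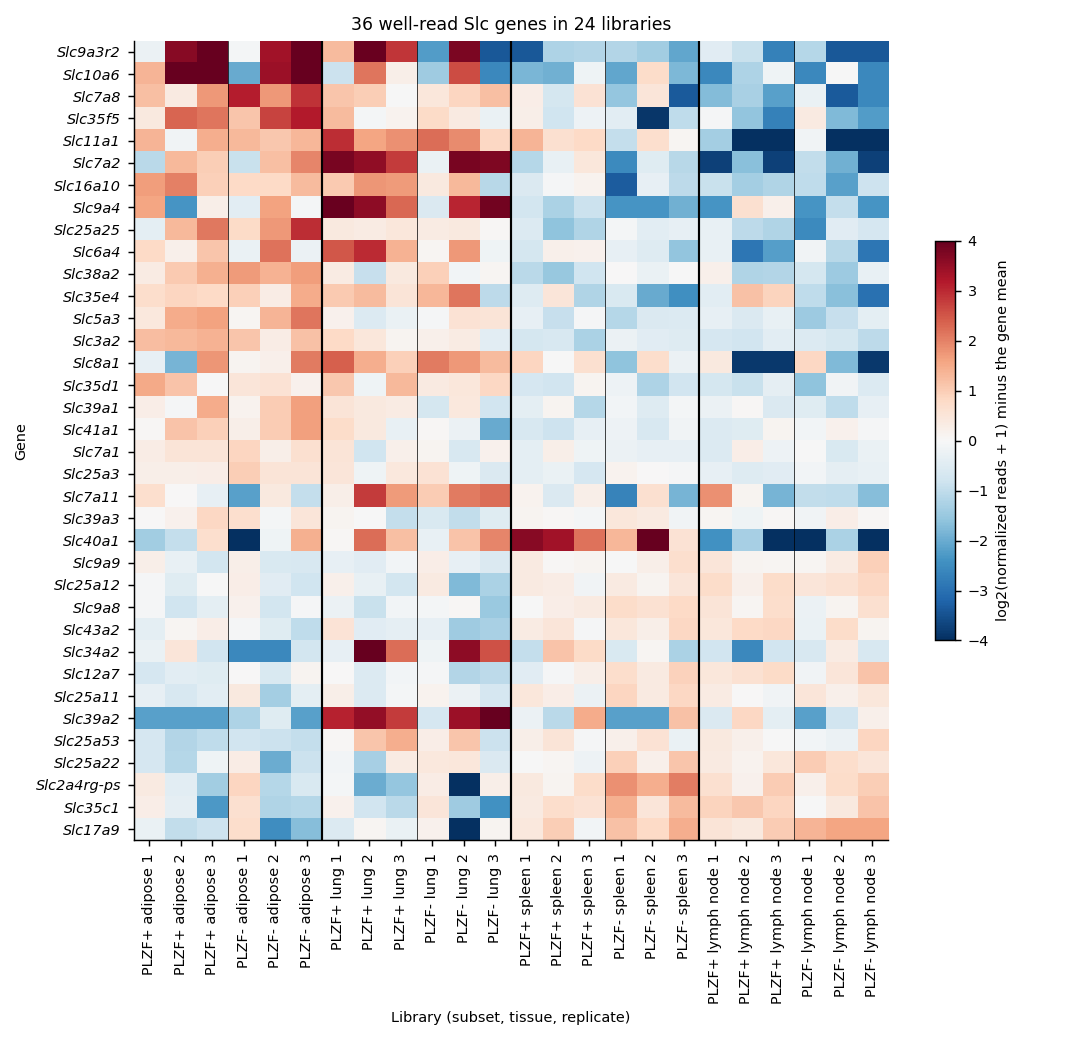
Heat map of the 36 well-read members (rows) in the 24 libraries (columns), coloured by log2(normalized reads + 1) minus the mean of the gene. Red marks libraries above a gene's own mean and blue those below. In most rows the adipose and lung columns differ on average from the spleen and lymph node columns, but single libraries overlap. Every adipose library lies above every lymphoid one in 7 members and below in 1, and every lung library lies above in 2.

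Amino acid transporters were the class with the most members. Of 8 well-read ones, 6 were higher, 1 was lower and 1 did not pass in adipose tissue, and the same split was seen in lung. Of all genes, 47.4% were higher and 37.7% lower in adipose tissue, and 42% and 37.1% in lung. The 6 include Slc7a8 in adipose tissue and Slc6a4 in lung, each of which reached the read minimum through that tissue. Per kilobase of exon, Slc3a2 averaged 99.2 normalized reads over all libraries, against 30.0 for Slc38a2. Slc3a2 (chr19:8706882-8723369, GRCm38) had 705, 736 and 792 normalized reads in PLZF+ adipose libraries and 640.2, 366 and 677 in PLZF- adipose libraries. In lung it had 522, 409.7 and 319 in PLZF+ and 346, 377 and 220.4 in PLZF- cells. In spleen it had 184, 192 and 124 in PLZF+ and 254, 216 and 209 in PLZF- cells, and lymph node held 187, 175 and 223 for PLZF+ and 202, 183 and 145 for PLZF- cells. Every adipose library thus lay above every lymphoid one, and lung lay between, overlapping both. The log2 difference was 1.75 ± 0.18 (SE) for adipose tissue against lymphoid organs (adjusted p = 4.72e-07, limma, n = 6 and 12) and 0.92 ± 0.18 for lung (adjusted p = 4.85e-04, limma). Adipose tissue stood above lung by 0.84 ± 0.21 (adjusted p = 0.00928, limma). Without adipose libraries 2 and 3, which hold most of the endothelial, stromal and adipocyte reads, the adipose difference was 1.84 (adjusted p = 3.29e-04, limma).

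Slc38a2 (chr15:96687392-96699730), the sodium-coupled neutral amino acid transporter SNAT2, had 263, 434 and 563 normalized reads in PLZF+ adipose libraries and 687, 554 and 678 in PLZF- ones. Lung libraries had 266, 112 and 277 in PLZF+ and 414, 194 and 220.4 in PLZF- cells. Spleen libraries had 100.4, 72.4 and 121 in PLZF+ and 214, 177 and 210.4 in PLZF- cells, and lymph node libraries had 243, 90.8 and 94.0 in PLZF+ and 128, 76.4 and 171 in PLZF- cells. All adipose libraries lay above all lymphoid ones, the lowest adipose and highest lymph node library lying close together. Slc38a2 was higher in adipose tissue than in lymphoid organs by 1.95 ± 0.26 on the log2 scale (adjusted p = 8.58e-06, limma), higher in lung by 0.82 ± 0.26 (adjusted p = 0.00945, limma; lost when scaled to totals, 1.34 without the shallow libraries) and higher in adipose tissue than in lung by 1.13 ± 0.31 (adjusted p = 0.0126, limma). Without adipose libraries 2 and 3 the first difference was 1.70 (adjusted p = 0.0109, limma). Without the 4 shallow lung libraries, neither Slc3a2 (0.58, adjusted p = 0.175, limma) nor Slc38a2 (0.61, adjusted p = 0.302, limma) passed between adipose tissue and lung.

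Slc16a10 (chr10:40033532-40142258) belongs by number to the monocarboxylate family but carries aromatic amino acids. It had 84.1, 107 and 50.5 normalized reads in PLZF+ and 45.5, 45.1 and 63.0 in PLZF- adipose libraries, and 54.5, 89.6 and 85.1 in PLZF+ and 34.1, 64.7 and 11.3 in PLZF- lung libraries. Spleen held 17.0, 24.9 and 28.3 in PLZF+ and 1.65, 20.3 and 11.8 in PLZF- cells, and lymph node between 4.93 and 14.1 in all 6. Adipose and lymphoid libraries did not overlap, while 1 lung library, PLZF- lung 3, lay among the lymphoid ones. The log2 difference was 2.41 ± 0.42 in adipose tissue (adjusted p = 9.61e-05, limma) and 2.05 ± 0.42 in lung (adjusted p = 6.05e-04, limma). It was 2.39 without adipose libraries 2 and 3 (adjusted p = 0.0273, limma), but in lung it no longer passed without the shallow libraries (1.87, adjusted p = 0.0562, limma).

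Slc7a8, the LAT2 light chain that pairs with Slc3a2, was lower in level than its partner. It ranged over 11.9, 32.7 and 89.7 normalized reads (lowest, median and highest) in adipose tissue, 9.12, 18.4 and 22.6 in lung, and 0, 2.80 and 14.2 in spleen and lymph node. The log2 difference was 3.67 ± 0.69 in adipose tissue, through which it reached the read minimum, and 4.0 without libraries 2 and 3. It was higher in lung by 2.66 ± 0.69 (adjusted p = 0.00269, limma), and the lung difference was 2.57 without the shallow libraries and did not pass (adjusted p = 0.136, limma). Slc7a1, the CAT1 carrier of arginine and lysine, ranged from 132 to 203 normalized reads in adipose tissue and from 73.1 to 132 in lymphoid organs, a difference of 0.74 ± 0.20 (adjusted p = 0.00245, limma). This call was lost with quantile scaling, with scaling to totals and without adipose libraries 2 and 3 (adjusted p = 0.0781, limma), and in lung the difference was 0.17 ± 0.20.

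The other arginine carrier, Slc7a2, was high in 5 of 6 lung libraries. It had 183, 154 and 91.2 normalized reads in PLZF+ and 9.93, 182 and 175 in PLZF- lung libraries, between 5.25 and 49.8 in adipose tissue and between 0 and 17.2 in spleen and lymph node. PLZF- lung 1 lay within the range of the spleen. Slc7a2 was higher in lung by 5.22 ± 0.78 (adjusted p = 3.96e-05, limma; 4.04 and adjusted p = 0.0303 without the shallow libraries) and in adipose tissue by 2.86 ± 0.78 (adjusted p = 0.00281, limma; 1.22 and adjusted p = 0.456 without adipose libraries 2 and 3, and lost with quantile scaling). Slc7a11, whose promoter is printed above, had 19.1, 118 and 54.7 in PLZF+ and 33.5, 70.6 and 79.1 in PLZF- lung libraries, against a lymphoid median of 8.99 and a highest lymphoid value of 59.7 in PLZF+ lymph node 1. It was higher in lung by 2.47 ± 0.58 (adjusted p = 0.00148, limma) and not in adipose tissue (0.33 ± 0.58). Without the shallow libraries, which hold the 4 highest lung values, the lung difference was 1.37 (adjusted p = 0.290, limma).

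Slc6a4, the serotonin transporter, had 40.6, 57.6 and 18.2 normalized reads in PLZF+ and 6.82, 23.5 and 5.65 in PLZF- lung libraries, against at most 7.53 in lymphoid ones. Its log2 difference was 2.97 ± 0.63 in lung, through which it reached the read minimum, and 2.70 without the shallow lung libraries. It was higher in adipose tissue by 2.07 ± 0.63 (adjusted p = 0.00580, limma), a call lost without adipose libraries 2 and 3 (1.64, adjusted p = 0.236, limma) and with both other scalings. The member that fell was Slc43a2, the LAT4 carrier of branched-chain amino acids. It ranged from 55.1 to 136 normalized reads in adipose tissue and from 41.2 to 167 in lung, against 94.4 to 200.5 in lymphoid organs, with overlap in both. It was lower by 0.68 in adipose tissue (log2 difference -0.68 ± 0.24, adjusted p = 0.0128, limma) and by 0.94 in lung (-0.94 ± 0.24, adjusted p = 0.00229, limma). With 2 adipose libraries left the difference was -0.64 (adjusted p = 0.212, limma), and with 2 lung libraries left it was -0.30 (adjusted p = 0.494, limma).

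**Figure D2:**
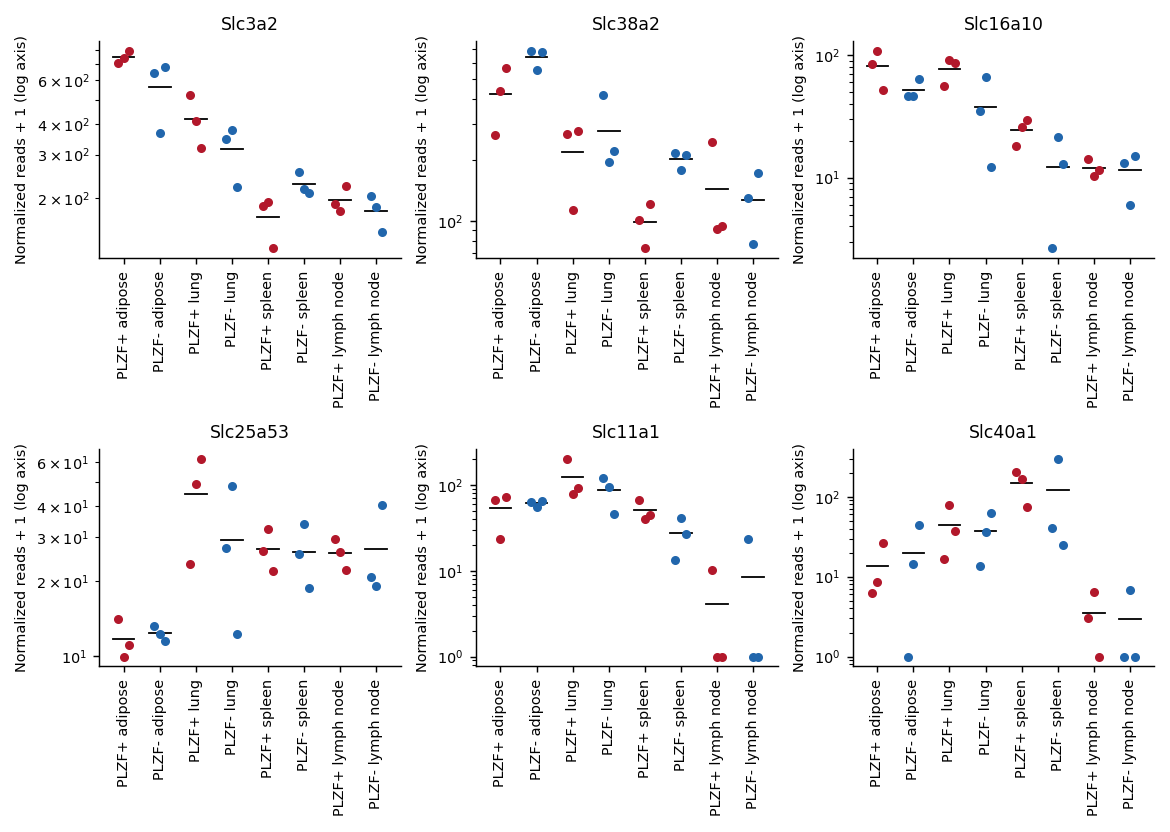
Normalized reads plus 1 (log axis) of 6 members in the 8 groups, with red points for PLZF+ and blue points for PLZF- libraries and a line at the mean of 3. Slc3a2, Slc38a2 and Slc16a10 stand highest in adipose tissue or lung, Slc25a53 is lowest in adipose tissue, and Slc11a1 and Slc40a1 are at or near 0 in most lymph node libraries.

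Genes of amino acid sensing were read from a list of 28, of which 7 are in the table and 6 were tested. Against lymphoid organs, 3 were higher and 3 lower in adipose tissue, beside 47.4% and 37.7% of all genes. In lung 1 was higher and 1 lower, beside 42% and 37.1%. Atf4, the transcription factor named above, averaged 612 ± 222 normalized reads (SD, n = 6) in adipose tissue and 216 ± 82.1 in lung, against 147 ± 45.7 in the 12 lymphoid libraries. Its log2 differences were 2.04 ± 0.23 in adipose tissue (adjusted p = 1.27e-06, limma) and 0.54 ± 0.23 in lung (adjusted p = 0.0400, limma). Rheb, the activator of mTORC1, was higher in adipose tissue by 1.34 ± 0.22, and Ddit3, a stress factor downstream of ATF4, by 0.69 ± 0.27. Lamtor4, a lysosomal anchor of mTORC1 (-1.33 ± 0.26), Sesn3, a sestrin (-1.11 ± 0.25), and Nprl3, a part of the GATOR1 inhibitor (-0.75 ± 0.22), were lower there. Without adipose libraries 2 and 3, Rheb stood at 1.12. In that setting Ddit3 (0.38), Lamtor4 (-0.74), Sesn3 (-0.94) and Nprl3 (-0.65) kept their direction but no longer passed. Bsg, the chaperone of monocarboxylate transporters and the only one of 9 listed partner genes that was tested, was higher in adipose tissue by 0.60 ± 0.18 (adjusted p = 0.00528, limma). Without adipose libraries 2 and 3 the Bsg difference was 0.37 and no longer passed.

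Sugar transporters were few. Slc5a3, the sodium and myo-inositol cotransporter, had 126, 264 and 293 normalized reads in PLZF+ and 99.5, 246 and 424 in PLZF- adipose libraries. It had between 64.0 and 141 in lung and between 34.0 and 90.6 in spleen and lymph node. All adipose libraries lay above the lymphoid ones, and libraries 1 of both subsets were the lowest adipose values. The difference was 1.83 ± 0.29 (adjusted p = 3.24e-05, limma) but 0.88 without adipose libraries 2 and 3 (adjusted p = 0.0789, limma). In lung it was 0.72 ± 0.29 (adjusted p = 0.0280, limma), a call lost when PLZF+ lung 1, PLZF- lung 2 or PLZF- lung 3 was left out and with both other scalings. Slc2a4rg-ps, placed here by number only, was lower in adipose tissue (-1.24 ± 0.46, adjusted p = 0.0186, limma) and in lung (-1.88 ± 0.46, adjusted p = 0.00192, limma), with a median of 19.6 normalized reads in adipose tissue and 17.8 in lung, against 47.5 in lymphoid organs. The adipose call was lost without PLZF+ adipose 3 or PLZF- adipose 2. Of 8 listed regulators of glucose transporters 2 were tested, and both were higher in both tissues, beside 47.4% of all genes in adipose tissue and 42% in lung. Arrdc4, an arrestin-like brake on glucose uptake, was higher by 2.66 ± 0.37 in adipose tissue and 2.68 ± 0.37 in lung, and Hif1a, the oxygen-sensing factor, by 1.21 ± 0.24 and 0.58 ± 0.24. Without adipose libraries 2 and 3 the adipose differences were 1.34 for Arrdc4 and 1.11 for Hif1a. Without the shallow lung libraries the lung differences were 2.33 and 0.51, and Hif1a no longer passed.

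Mitochondrial carriers went both ways, as all genes did. Of 6 well-read members, 2 were higher and 4 lower in adipose tissue, and in lung 2 were higher, 2 lower and 2 did not pass. Beside them stand 47.4% of all genes higher and 37.7% lower in adipose tissue, and 42% and 37.1% in lung. Slc25a3, which brings phosphate and copper into mitochondria, had the highest level per kilobase of exon of these genes, 172 normalized reads, against 72.8 for Slc25a11. It had 1081, 1072 and 1100.0 normalized reads in PLZF+ and 1794, 1292 and 1312 in PLZF- adipose libraries, against 569 to 1005 in the lymphoid libraries, without overlap. The adipose difference was 0.74 ± 0.17 (adjusted p = 7.10e-04, limma) and 0.89 without adipose libraries 2 and 3 (adjusted p = 0.0287, limma). It was 0.24 with quantile scaling and 0.10 with totals, neither past the test. In lung the difference was 0.38 ± 0.17 (adjusted p = 0.0458, limma; 0.81 without the shallow libraries), leaving out any of 17 single libraries ended the call, and the difference turned to -0.03 with totals.

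Slc25a25 was steady in lung and variable in adipose tissue. Lung libraries had 101, 96.0 and 106 normalized reads in PLZF+ and 96.2, 100.1 and 79.1 in PLZF- cells, all above the lymphoid range of 12.3 to 72.6. Adipose libraries had 57.8, 191 and 331 in PLZF+ and 132, 255 and 598 in PLZF- cells, lowest in libraries 1 of both subsets. The differences were 1.22 ± 0.38 in lung (adjusted p = 0.00761, limma; 1.24 and adjusted p = 0.181 without the shallow libraries) and 2.30 ± 0.38 in adipose tissue (adjusted p = 5.51e-05, limma; 1.07 and adjusted p = 0.0986 without adipose libraries 2 and 3). With quantile scaling the lung call was lost (0.75).

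Slc25a53, a carrier whose substrate is not known, was the only member for which every adipose library lay below every lymphoid one, beside 4.49% of all genes. It had 13.1, 8.96 and 10.1 normalized reads in PLZF+ and 12.2, 11.3 and 10.5 in PLZF- adipose libraries, against 17.7 to 39.5 in lymphoid libraries and 11.3 to 60.8 in lung. In normalized reads PLZF- lung 3 fell within the adipose range, while on the deposited log2 scale, which adds 0.5 reads before the logarithm, every adipose library lay below every lung library, as in 3.93% of all genes. The difference was -1.10 ± 0.29 against lymphoid organs (adjusted p = 0.00204, limma) and -1.51 ± 0.33 against lung (adjusted p = 0.00439, limma). It was -0.93 without adipose libraries 2 and 3 (adjusted p = 0.169, limma) and, against lung, -1.07 without the shallow libraries (adjusted p = 0.0918, limma). Slc25a11, the oxoglutarate and malate carrier, averaged 113 ± 43.9 normalized reads (SD) in adipose tissue and 130.5 ± 32.6 in lung, against 187 ± 43.9 in lymphoid organs. It was lower in adipose tissue (-0.77 ± 0.22, adjusted p = 0.00325, limma; -0.29 without libraries 2 and 3) and in lung (-0.50 ± 0.22, adjusted p = 0.0397, limma), where leaving out any of 11 single libraries ended the call. Slc25a12, the aspartate and glutamate carrier, was lower by 0.67 in adipose tissue (-0.67 ± 0.26; not without PLZF+ adipose 2 or PLZF- adipose 3) and by 0.95 in lung (-0.95 ± 0.26). Slc25a22, the glutamate carrier, was lower in adipose tissue (-1.19 ± 0.34, adjusted p = 0.00361, limma) and did not pass in lung (-0.52 ± 0.34).

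Of 6 well-read metal transporters, 3 were higher and 3 did not pass in adipose tissue, and 2 were higher, 1 was lower and 3 did not pass in lung. All tested genes had 47.4% higher and 37.7% lower in adipose tissue, and 42% and 37.1% in lung. Between spleen and lymph node 2 of 36 members passed, beside 5.13% of all genes, and both belong to this class. Slc40a1 (chr1:45908068-45926523), the iron exporter, had 204, 167 and 73.3 normalized reads in PLZF+ spleen cells and 40.0, 297 and 23.6 in PLZF- spleen cells, against 2.04, 5.48 and 0 in PLZF+ lymph node cells and 0, 5.75 and 0 in PLZF- lymph node cells. No libraries overlapped, which holds for spleen above lymph node in 1.86% of all genes. The log2 difference was 6.21 ± 1.09 (adjusted p = 0.00288, limma). Slc40a1 had 15.9, 76.8 and 36.5 normalized reads in PLZF+ lung cells and 12.4, 35.3 and 62.2 in PLZF- lung cells and between 0 and 43.3 in adipose tissue, and neither tissue passed the test against the mean of spleen and lymph node.

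Slc11a1 (chr1:74375195-74386062), the phagosome metal pump known as NRAMP1, had 65.0, 39.4 and 43.7 normalized reads in PLZF+ spleen cells and 12.4, 40.0 and 26.2 in PLZF- spleen cells. In lymph node it had 9.18 in PLZF+ library 1, 22.7 in PLZF- library 1 and 0 in the other 4. The difference between spleen and lymph node was 4.76 ± 0.89 (adjusted p = 0.00421, limma), with overlap through PLZF- lymph node 1. Lung held 200.5, 76.8 and 91.2 in PLZF+ and 121, 94.2 and 45.2 in PLZF- cells, above spleen and lymph node by 3.89 ± 0.77 (adjusted p = 4.39e-04, limma; 4.58 and adjusted p = 0.0283 without the shallow libraries). Adipose libraries held between 22.4 and 70.6, a difference of 3.05 ± 0.77 (adjusted p = 0.00164, limma; 3.31 and adjusted p = 0.0767 without libraries 2 and 3).

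Marker genes of other cells also differed between these organs. The 8 macrophage markers together made up 1.12%, 0.575% and 0.504% of the reads of PLZF+ spleen cells and 0.218%, 0.966% and 0.161% of those of PLZF- spleen cells, against 0.289%, 0.0187% and 0.0226% for PLZF+ lymph node cells and 2.0%, 0.0158% and 0.00571% for PLZF- lymph node cells. The 2 lymph node libraries with Slc11a1 reads are the 2 with the most macrophage reads. PLZF- lymph node 1, which had the highest share of macrophage-marker reads of either organ, held no Slc40a1 read. Most of its share was Lyz2, at 5049 normalized reads, against 354 to 2077 in spleen. Cd68 had 154 there, also above the 11.8 to 110 of spleen. Adgre1 (23.6, against 5.77 to 94.0) and Mrc1 (13.2, against 2.21 to 65.0) lay within the spleen range. C1qa, a macrophage complement gene, had 5.67 normalized reads in PLZF- lymph node 1, 8.84 to 116 in spleen, and 0 in PLZF+ lymph node 2 and 3 and PLZF- lymph node 2. In lung, where macrophage reads were higher than in spleen, Slc40a1 had 12.4 to 76.8 normalized reads, against 23.6 to 297 in spleen. The 6 B cell markers took 0.314% to 2.34% of reads in spleen, against 0.107% to 0.298% in lymph node, and the 2 of 4 erythroid markers in the table took 0.00228% to 0.505%, against at most 0.000697%. PLZF- spleen 2, the library with the most Slc40a1, also had the most erythroid reads. The part of macrophages, B cells and erythroid cells in the differences of Slc40a1 and Slc11a1 was not tested.

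The zinc importers differed among themselves. Slc39a1, at the plasma membrane of most cells, was higher in adipose tissue by 1.17 ± 0.29 (adjusted p = 0.00152, limma; 0.62 without libraries 2 and 3), with 37.3 to 125 normalized reads against 17.2 to 41.7 in lymphoid organs. Slc39a3 was lower in lung by 0.51 (-0.51 ± 0.18, adjusted p = 0.0172, limma; not without PLZF+ lung 3), with a median of 32.5 normalized reads against 49.6. Slc39a2 had 37.3, 51.2 and 30.4 normalized reads in PLZF+ and 1.86, 47.1 and 79.1 in PLZF- lung libraries, against 0 to 11.7 in lymphoid ones. It reached the read minimum through lung, and its log2 difference there was 3.78 ± 0.84, or 2.11 without the shallow libraries. In adipose tissue 4 of 6 libraries had no Slc39a2 read. Slc41a1, a magnesium transporter, was higher in adipose tissue than in lymphoid organs by 1.16 ± 0.28 (adjusted p = 0.00131, limma), with 49.9 and 56.8 normalized reads in libraries 1 and 95.9 to 152 in libraries 2 and 3. Without libraries 2 and 3 the difference was 0.45 (adjusted p = 0.422, limma). The adipose calls of Slc39a1 and Slc41a1 were also lost with both other scalings.

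Of 11 listed genes of metal handling 6 were tested, and 6 were higher in adipose tissue and 4 in lung, beside 47.4% and 42% of all genes. The 6 include Mt2 and Steap4, which averaged under the read minimum outside adipose tissue. The metallothionein Mt1 had 101, 196 and 313 normalized reads in PLZF+ and 60.1, 219.7 and 766 in PLZF- adipose libraries, against at most 15.6 in lymphoid ones. Its lowest adipose values were in libraries 1 of both subsets, which also have the fewest endothelial, stromal and adipocyte reads. Mt1 was higher in adipose tissue by 5.94 ± 0.75 on the log2 scale, and by 4.59 without libraries 2 and 3 (adjusted p = 0.0115, limma). The ferritin chains Fth1 (1.11 ± 0.26 in adipose tissue and 1.58 ± 0.26 in lung) and Ftl1 (1.16 ± 0.30 and 1.41 ± 0.30) were higher in both tissues. Without adipose libraries 2 and 3 the adipose differences were 0.95 for Fth1 and 0.87 for Ftl1, and neither passed. Without the shallow lung libraries the lung differences were 1.27 and 0.99, and Ftl1 no longer passed. Lung held 2.61% to 6.69% macrophage reads, and the part of other cells in these differences was not tested. Hmox1, which breaks down heme, was higher in spleen than in lymph node by 4.04 ± 0.88 (adjusted p = 0.0108, limma), with 103 ± 71.9 against 9.97 ± 12.9 normalized reads.

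Transporters of nucleotide sugars feed glycosylation in the Golgi and endoplasmic reticulum. Of 4 well-read members, 3 were higher and 1 lower in adipose tissue, and likewise in lung. The shares of all genes were 47.4% higher and 37.7% lower in adipose tissue, and 42% and 37.1% in lung. Slc35d1, a UDP-sugar carrier of the endoplasmic reticulum, was higher in adipose tissue by 1.35 ± 0.30 (adjusted p = 6.42e-04, limma; 1.68 and adjusted p = 0.0189 without libraries 2 and 3) and in lung by 1.38 ± 0.30 (adjusted p = 8.38e-04, limma; 1.41 and adjusted p = 0.0428 without the shallow libraries). Its medians were 37.0 normalized reads in adipose tissue and 40.3 in lung, against 15.4 in lymphoid organs. Both calls were lost with quantile scaling, and the adipose call with totals too. The lower member was Slc35c1, the GDP-fucose carrier. It had 78.8, 50.8 and 12.6 normalized reads in PLZF+ and 103, 28.2 and 28.9 in PLZF- adipose libraries, 74.1, 38.4 and 30.4 in PLZF+ and 92.4, 23.5 and 11.3 in PLZF- lung libraries, and 64.2 to 176 in lymphoid ones.

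In both tissues, libraries 1 of Slc35c1 reached the lymphoid range and libraries 2 and 3 lay below it. The log2 difference was -1.44 ± 0.40 in adipose tissue (adjusted p = 0.00332, limma) and -0.30 with libraries 1 alone (adjusted p = 0.652, limma). In lung it was -1.54 ± 0.40 (adjusted p = 0.00275, limma) and -0.43 with libraries 1 alone (adjusted p = 0.563, limma). Slc35f5, a member without an assigned substrate, had 18.4, 73.1 and 63.1 normalized reads in PLZF+ and 30.5, 94.7 and 132 in PLZF- adipose libraries, all above the lymphoid range of 0 to 17.9. It was higher in adipose tissue by 3.44 ± 0.66 (adjusted p = 1.92e-04, limma; 2.20 and adjusted p = 0.138 without libraries 2 and 3) and in lung by 1.91 ± 0.66 (adjusted p = 0.0136, limma; lost with both other scalings). Slc35e4 was higher in adipose tissue by 1.91 ± 0.53 (adjusted p = 0.00319, limma) and in lung by 2.02 ± 0.53 (adjusted p = 0.00279, limma), both lost with quantile scaling.

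Of 6 well-read genes numbered with the ion exchangers, 2 were higher, 3 lower and 1 did not pass in adipose tissue, and 3 were higher and 3 lower in lung. Over all genes the shares were 47.4% higher and 37.7% lower in adipose tissue, and 42% and 37.1% in lung. Slc12a7, the potassium and chloride cotransporter KCC4, averaged 141 ± 33.5 normalized reads (SD, n = 6) in adipose tissue and 131 ± 44.2 in lung, against 245 ± 74.0 in lymphoid organs (n = 12). The differences were -0.76 ± 0.22 (adjusted p = 0.00382, limma) and -0.89 ± 0.22 (adjusted p = 0.00176, limma). Slc9a8, a sodium and proton exchanger of the Golgi, was lower by 0.68 (-0.68 ± 0.25) in adipose tissue and by 0.81 (-0.81 ± 0.25) in lung. Slc9a9, whose promoter is printed above, was lower by 0.57 (-0.57 ± 0.21) and 0.52 (-0.52 ± 0.21). The adipose calls of Slc9a8 and Slc9a9 were each lost when either of 2 adipose libraries was left out, the lung call of Slc9a9 without any of 6 single libraries, and with libraries 1 alone the Slc9a9 difference in adipose tissue was -0.04. Slc8a1, the sodium and calcium exchanger, had 74.6, 38.4 and 27.4 normalized reads in PLZF+ and 60.8, 47.1 and 33.9 in PLZF- lung libraries, each above the highest lymphoid value of 25.4. It was higher in lung by 3.10 ± 0.88 (adjusted p = 0.00440, limma; 3.65 and adjusted p = 0.101 without the shallow libraries) and did not pass in adipose tissue (1.72 ± 0.88). Slc9a4, another sodium and proton exchanger, had 78.3, 60.8 and 24.3 in PLZF+ and 2.48, 41.2 and 73.5 in PLZF- lung libraries and at most 7.05 in lymphoid ones. It reached the read minimum through lung, where its log2 difference was 5.04 ± 0.83, or 3.90 without the shallow libraries, and in adipose tissue the difference was 2.33 ± 0.83 (adjusted p = 0.0144, limma), a call lost without PLZF+ adipose 1 and with both other scalings.

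Slc9a3r2, the scaffold protein, was high in the adipose libraries with many endothelial, stromal and adipocyte reads. It had 7.88, 131 and 189 normalized reads in PLZF+ and 8.92, 106 and 432 in PLZF- adipose libraries, and 24.2, 163 and 76.0 in PLZF+ and 1.24, 141 and 0 in PLZF- lung libraries, against 0 to 6.63 in lymphoid ones. Adipose libraries 1 of both subsets sat just above the lymphoid range, and libraries 2 and 3 far above it. The 9 endothelial markers made up 0.111%, 2.47% and 3.64% of the reads of PLZF+ adipose cells and 0.0267%, 3.47% and 4.74% of those of PLZF- adipose cells, and none of the 9 was at 0 there. Their share was 0.0898%, 0.441% and 0.125% for PLZF+ lung cells, 0.0207%, 0.526% and 0.114% for PLZF- lung cells, and at most 0.0358% in lymphoid libraries. In lung the orders differed, since PLZF- lung 3 had more endothelial reads than PLZF+ lung 1 but no Slc9a3r2 read. That 0 is limited by depth, since 3 reads stand for 17.0 normalized reads in PLZF- lung 3. The adipose difference of Slc9a3r2 was 5.14 ± 1.03 (adjusted p = 2.96e-04, limma) and 2.21 without libraries 2 and 3 (adjusted p = 0.271, limma). Slc10a6, a carrier of sulfated steroids, showed a like layout. It had 14.4, 98.5 and 131 normalized reads in PLZF+ and 0.469, 63.1 and 169 in PLZF- adipose libraries, and 0 to 8.97 in lymphoid ones. It reached the read minimum through adipose tissue, where its log2 difference was 4.62 ± 1.10, or 1.24 without libraries 2 and 3. Stromal and adipocyte reads, given above, were higher in the same 4 libraries, and the part of endothelial, stromal and fat cells in these differences was not tested.

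Phosphate transporters differed between organs in opposite ways. Slc17a9, the vesicular ATP transporter, ranged from 5.63 to 59.6 normalized reads in adipose tissue and from 0 to 40.9 in lung, against 33.9 to 112 in lymphoid organs. It was lower in adipose tissue by 1.88 (-1.88 ± 0.49, adjusted p = 0.00206, limma; -0.72 without libraries 2 and 3) and in lung by 1.60 (-1.60 ± 0.49, adjusted p = 0.00709, limma; -1.14 and adjusted p = 0.158 without the shallow libraries). Slc34a2, the phosphate transporter of the lung's alveolar epithelium, had 3.73, 134 and 27.4 in PLZF+ and 4.34, 70.6 and 33.9 in PLZF- lung libraries, against 0 to 12.2 in lymphoid ones. Lung libraries 1 lay within the lymphoid range and libraries 2 and 3 above it. It reached the read minimum through lung, and the log2 difference of 2.85 ± 0.78 was 0.36 with libraries 1 alone and 1.24 by voom on recovered reads.

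Epithelial markers moved with Slc34a2. Of 7 listed, 5 are in the table, and they made up 0.00130%, 0.412% and 0.127% of the reads of PLZF+ lung cells and 0.00336%, 0.221% and 0.0578% of those of PLZF- lung cells, against at most 0.00382% in lymphoid ones. Sftpc, the surfactant gene that defines alveolar type II cells, had 1075 and 307 normalized reads in PLZF+ lung 2 and 3 and 589 and 62.2 in PLZF- lung 2 and 3, but 1.40 and 1.24 in the lung libraries 1, and it was at 0 in every lymph node library. The part of epithelial cells in the Slc34a2 difference was not tested.

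**Figure D3:**
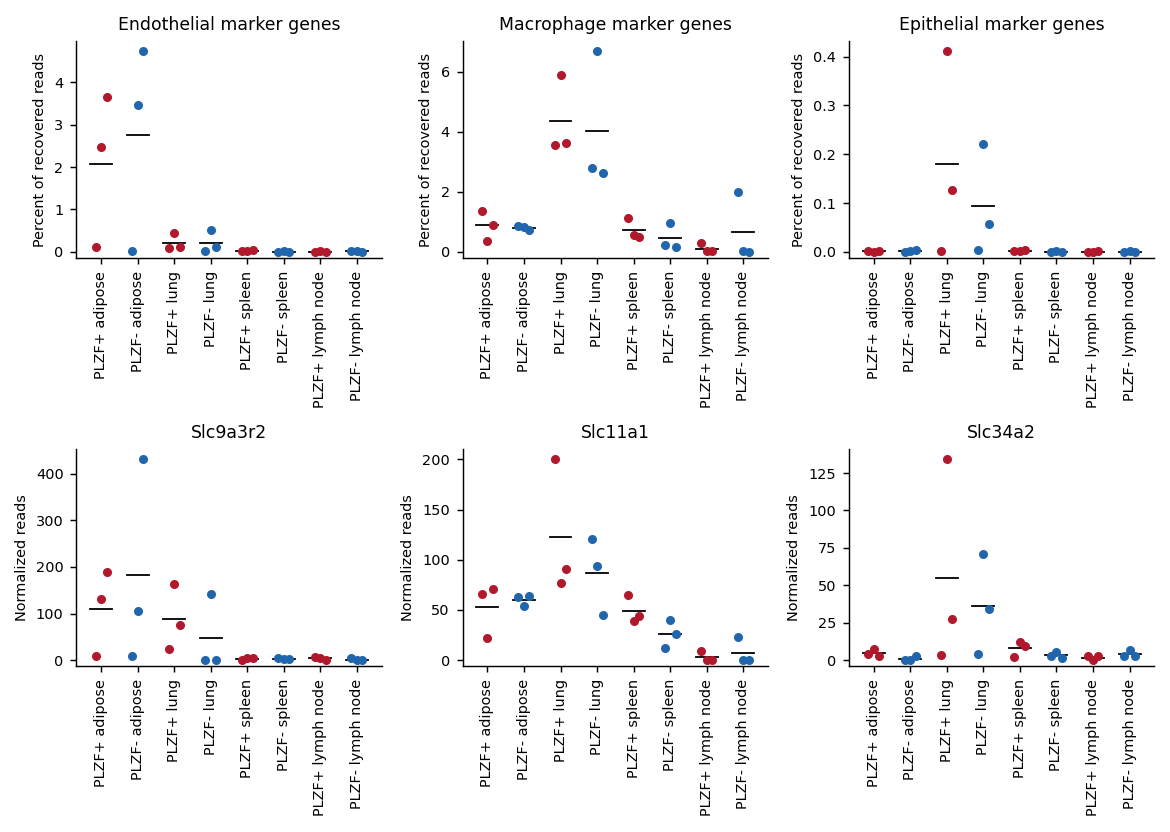
Share of recovered reads taken by endothelial, macrophage and epithelial markers in each library (upper panels, percent) above the normalized reads of Slc9a3r2, Slc11a1 and Slc34a2 (lower panels). Endothelial reads and Slc9a3r2 are both low in adipose libraries 1 and high in libraries 2 and 3, and epithelial reads and Slc34a2 are both low in lung libraries 1.

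Between adipose tissue and lung, 10 of 36 members passed, 5 higher and 5 lower in adipose tissue, beside 25.8% of all genes (14.5% higher and 11.3% lower). The 5 higher were Slc3a2, Slc38a2 and Slc5a3 (1.11 ± 0.33, adjusted p = 0.0209, limma), Slc41a1 (1.01 ± 0.33, adjusted p = 0.0300, limma) and Slc39a3 (0.80 ± 0.21, adjusted p = 0.0114, limma). Among the 5 lower were Slc25a53 and Slc7a11 (-2.14 ± 0.67, adjusted p = 0.0267, limma). The others were Slc39a2 (-4.77 ± 0.97), Slc34a2 (-3.60 ± 0.91) and Slc9a4 (-2.71 ± 0.95). These reached the read minimum through lung, and their differences are a description only. Leaving aside the 6 members that reached the minimum through 1 of these tissues, 7 of 30 passed, 5 higher and 2 lower. None of the 10 passed without the 4 shallow lung libraries (5.13% of all genes did), where the differences that were called lay between -3.10 and 1.13. Single libraries ended the calls of Slc5a3, Slc41a1 and Slc7a11. With 2 adipose libraries left, 1 of 36 passed, beside 2.81% of all genes.

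**Figure D4:**
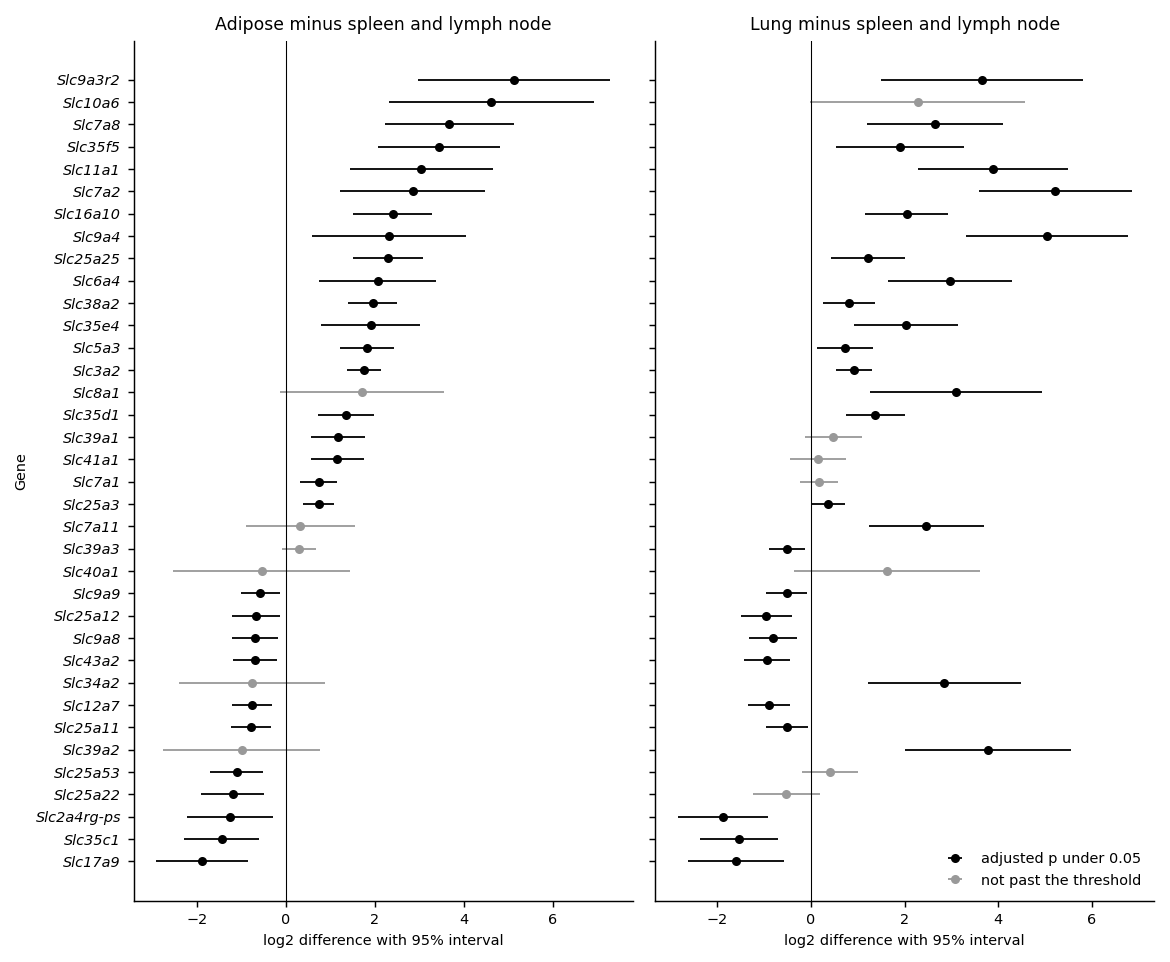
Log2 differences of the 36 well-read members between tissues, with 95% confidence intervals from limma; black marks an adjusted p under 0.05 and grey the others. The panels show adipose tissue and lung, each against spleen and lymph node. In the adipose panel 30 members are black and in the lung panel 29. Among them are those that reached the read minimum through the tissue shown.

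PLZF+ cells were compared with PLZF- cells within each tissue and over all 4, the comparison the sort was made for. No member passed limma's test in any of these comparisons, and voom on recovered reads called none either. Of all genes 3.27% passed over all tissues, 0.14% in adipose tissue, 0.0702% in lung, 0.421% in spleen and 0.878% in lymph node. At an unadjusted p under 0.05, 4 of 36 members were found over all tissues, beside 14.3% of all genes. Within tissues they numbered 1 in adipose tissue (4.81% of genes), 1 in lung (7.97%), 4 in spleen (10.6%) and 1 in lymph node (8.71%). A difference of the PLZF contrast between tissues was called for 0 members (0 also at an unadjusted p under 0.05, and 0 by voom), beside 0.176% of genes. The interval of the averaged log2 difference reached up to 1.88 to either side for the least precise member.

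Of the members with the smallest p over all tissues, Slc16a10 averaged 47.9 ± 35.6 normalized reads in PLZF+ and 27.4 ± 22.3 in PLZF- cells (SD, n = 12 each). Its log2 difference was 0.91 ± 0.34, with a 95% interval from 0.18 to 1.63 (adjusted p = 0.196, limma). Slc35e4 had a median of 21.9 normalized reads in PLZF+ and 6.75 in PLZF- cells, a difference of 1.04 ± 0.43 (adjusted p = 0.252, limma). Its values in lymph node were 9.18, 29.7 and 24.3 in PLZF+ and 5.67, 3.28 and 0.705 in PLZF- cells, without overlap, and the difference there was 2.73 ± 0.87 (adjusted p = 0.221, limma). In that organ 10% of all genes had every PLZF+ library above every PLZF- one, and 10% the reverse. Slc43a2 averaged 137 ± 40.9 in PLZF+ and 109.8 ± 53.0 in PLZF- cells, a difference of 0.41 ± 0.19 (adjusted p = 0.331, limma).

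Slc38a2 pointed the other way, with 219.7 ± 154 normalized reads in PLZF+ and 310.4 ± 216 in PLZF- cells and a difference of -0.50 ± 0.22 (adjusted p = 0.283, limma). In spleen its libraries did not overlap, with 100.4, 72.4 and 121 normalized reads for PLZF+ and 214, 177 and 210.4 for PLZF- cells (-1.06 ± 0.43, adjusted p = 0.374, limma). Neither did those of Slc25a3 in spleen, with 692, 755 and 569 for PLZF+ and 1005, 911 and 873 for PLZF- cells (-0.47 ± 0.27), nor those of Slc3a2 given above (-0.46 ± 0.30). In all, 8 of 36 members had every PLZF+ spleen library below every PLZF- one, beside 18.1% of all genes, and 1, Slc9a4, the reverse, beside 11%. In adipose tissue Slc3a2 lay the other way, every PLZF+ library above every PLZF- one (0.46 ± 0.30, 95% interval -0.17 to 1.08), beside 2.84% of genes, while Slc25a3 had every PLZF+ library below every PLZF- one (-0.42 ± 0.27), beside 4.21%. In lung no member was free of overlap either way, beside 5.93% of genes above and 3.37% below.

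The other members with the smallest p over all tissues were Slc7a11 (0.92 ± 0.48, adjusted p = 0.400, limma), Slc9a4 (1.24 ± 0.67, adjusted p = 0.429, limma), Slc25a3 (-0.19 ± 0.14, adjusted p = 0.604, limma), Slc25a22 (-0.38 ± 0.28, adjusted p = 0.619, limma), Slc39a2 (0.92 ± 0.69, adjusted p = 0.635, limma) and Slc2a4rg-ps (-0.46 ± 0.38, adjusted p = 0.682, limma). The intervals of Slc16a10, Slc35e4, Slc38a2 and Slc43a2 did not include 0 before adjustment, and those of the other 6 did. None of the listed genes of amino acid sensing, glucose regulation, metal handling or transporter partners passed in a PLZF comparison either.

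**Figure D5:**
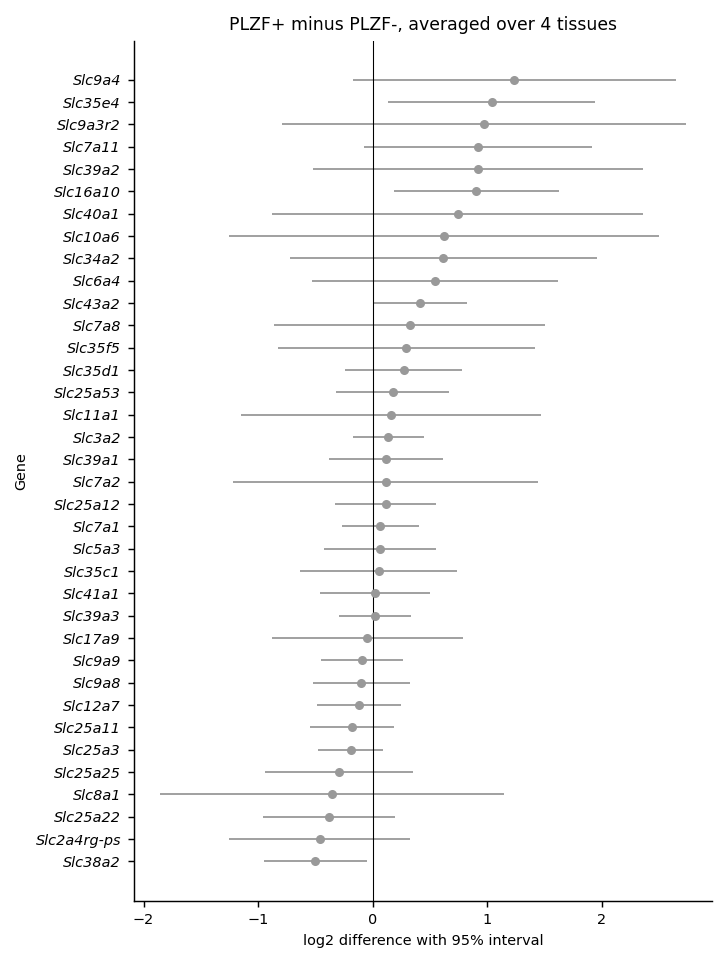
Log2 difference between PLZF+ and PLZF- libraries averaged over the 4 tissues for the 36 well-read members, with 95% confidence intervals from limma. No member passed after adjustment, and Slc16a10, Slc35e4 and Slc38a2 have the smallest adjusted p, between 0.196 and 0.283.

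The 18 members near the floor averaged 0.196 to 9.61 normalized reads and had reads in 2 to 24 libraries. They were not tested, and group means of a few reads carry large counting errors. The retinal sodium, calcium and potassium exchanger Slc24a1 had reads in all 24 libraries, 217 in total. Its highest group mean was 25.2 normalized reads in PLZF- lung. There library 1 had 29.8 normalized reads from 48 reads. The shallow libraries 2 and 3 had 17.7 and 28.3, from only 3 and 5 reads. Slc16a7, the monocarboxylate transporter MCT2, also had reads in all 24, with 16.4 in PLZF+ and 17.5 in PLZF- lung. Slc1a1, a glutamate and cysteine transporter, was highest in adipose tissue at 17.8 in PLZF+ and 28.6 in PLZF- groups, and so were Slc27a3, a fatty acid transport protein (16.2 and 14.5), and Slc2a10, a glucose transporter (12.3 and 10.8). Adipose libraries 1 had the lowest Slc1a1 values of that tissue, 7.88 in PLZF+ and 1.88 in PLZF- cells. Libraries 2 and 3, with more endothelial, stromal and adipocyte reads, had 17.9 to 43.3.

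Slc30a10, a manganese exporter, had its highest mean in PLZF+ lung at 17.3 normalized reads, Slc45a3 in PLZF+ spleen at 13.3, Slc36a3os in PLZF- lymph node at 12.4 and Slc6a9, a glycine transporter, in PLZF- adipose tissue at 11.3. Of the remaining 9, Slc6a12, Slc22a18, Slc26a8, Slc22a29, Slc12a3, Slc6a16, Slc17a7 and Slc25a48 had reads in 9 to 18 libraries and no group mean above 4.93. The last, Slc51b, had 4 reads in 2 libraries.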

How the data were processed

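Per the submitters' processing notes, reads were processed with HISAT 0.1.6, SAMtools 1.2 and Cufflinks 1.2 against mm10. The authors deposited log2 values with TMM factors per library, per the file headers. Their deposited p-value equals that of a one-way test over the 4 tissues for 7915 genes, within 0.001 on the log10 scale. The rows kept have a deposited q-value under 0.05, and that column was not recomputed. Each deposited log2 value is the log2 of whole reads plus 0.5, plus a library term and a gene term. Whole reads were recovered from it for 7926 of 7926 genes (tolerance 0.02 reads or the value's own rounding). Of values from 1 to 20, 53.6% were even. Dividing by relative depth gave normalized reads.

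The members, gene lists and tests were chosen with earlier results of these data known. The deposited log2 values were fitted in R 4.3.3 with limma 3.58.1 (trend, 8 group means, 24 libraries) for the 2848 genes with a mean of at least 10 normalized reads. P-values were adjusted by Benjamini and Hochberg over these genes at 0.05. A fold change is on the log2(reads + 0.5) scale, where the 0.5 is added before the scaling for depth. A count of 0 therefore stands higher in a shallow library than in a deep one. Changes of low genes can thus be understated, or overstated upward in the shallow lung libraries. Between lung and lymphoid organs the median over all genes was 1.93 without the read filter, against 0.46 with it. Alternatives were voom on recovered reads, another pseudocount, 2 other filters, 2 other scalings, replicate blocks, each library left out in turn, and 4 lung or 4 adipose libraries left out. The fit was tested on simulated data. Genes named are those past a PLZF comparison, the largest differences between tissues with no overlap, the 10 smallest p over all tissues, the 3 highest of each class, and members near the floor with reads in at least 6 libraries; the other members were named to account for all. Replicate libraries differed by more than sampling noise. Values were handled with Python 3.11.15, numpy 2.4.6, pandas 2.3.3 and matplotlib 3.10.9. Gene coordinates are from GENCODE on GRCm38.

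No label pairs the libraries. Deviations of PLZF+ and PLZF- libraries with the same number correlated at 0.792, 0.357 and 0.719 in adipose tissue and 0.473, 0.276 and 0.280 in lymph node. In adipose tissue, PLZF+ 2 with PLZF- 3 (0.411) and PLZF+ 3 with PLZF- 2 (0.449) correlated above the libraries numbered 2 (0.357). Whether the numbers pair the libraries is not settled, and the main fit used no pairs.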

Additional observations from a re-analysis of the deposited data

How the results depend on the processing

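Among the differences of single members that passed, 1 changed sign under an alternative: Slc25a3 between lung and lymphoid organs was at -0.032 when reads were scaled to library totals; the cause was not tested. Calls of single members in a comparison were lost 14 times by voom, 18 with quantile scaling, 12 with totals and 2 with the other pseudocount, all keeping their direction. Without adipose libraries 2 and 3 of both subsets, 6 members passed between adipose tissue and lymphoid organs, not 30 (all genes: 19.6%, not 85.1%), and 1 passed between adipose tissue and lung, not 10 (2.81%, not 25.8%). Without the 4 shallow lung libraries, 7 passed between lung and lymphoid organs, not 29 (17.7%, not 79%), and 0 between adipose tissue and lung (5.13%). By voom with all libraries, 5 passed between adipose tissue and lung. These settings leave 2 libraries of a tissue. Leaving out single libraries gave 6 to 12 members between adipose tissue and lung and 2 to 4 between spleen and lymph node (4 without PLZF- lymph node 1). Low-read lung values are limited by depth, since 3 reads stand for up to 17.7 normalized reads.

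The count of all genes called in the PLZF comparison over all tissues was 93 in the fit and lay between 54 and 154 under the alternatives, with 122 by voom and 64 with quantile scaling. No member passed in any PLZF comparison under any of them. With the replicate block 30 members passed between adipose tissue and lymphoid organs, 30 between lung and lymphoid organs, 11 between adipose tissue and lung, 2 between spleen and lymph node and 0 in the PLZF comparisons. The block within tissue called no member in a PLZF comparison either. Same-numbered libraries correlated at 0.512, 0.412 and 0.065 in lung and 0.018, -0.057 and -0.042 in spleen. The spleen values show no sign of pairs, and in lung pairing is not settled either.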
